A study of Homo sapiens with 30 samples.

Results

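The heat shock genes described here are the 10 rows of the deposited count table for HSPA1A, HSPA1B, HSPA8, HSPH1, HSP90AA1, HSP90AB1, DNAJB1, HSPB1, HSPD1 and BAG3, out of 60675 gene entries. They were taken by name, as a group whose results in these data were already known. All 10 were found, and all 10 passed the filter on low counts in every fit. The study measured RNA from SW1783, an established human astrocytoma line, in 30 libraries after 24 h. Cells had received an ethanol extract of the herbal formulas Okbyeongpung-san (2 libraries per dose), Soshiho-tang (3 per dose), Yijin-tang (3 per dose) or Soyo-san (1 per dose), each at 500, 100 or 20 µg/mL. The 3 vehicle libraries had received DMSO, given as 0.1% in the sample labels and as 2% in the series text. No gene was altered in any group. Whether replicate libraries stem from cultures of their own is not stated, and the spread behind each p-value may therefore be technical.

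Heat shock proteins are chaperones that bind unfolded or newly made proteins. HSP70 proteins take up exposed peptide segments under the control of J-domain co-chaperones, which start the ATP cycle, and of exchange factors, which release the nucleotide. HSP90 proteins act later, on signalling proteins, and small heat shock proteins hold unfolded proteins without using ATP. When unfolded protein accumulates, heat shock factor 1 (HSF1) binds heat shock elements in promoters, inverted repeats of the unit GAA, and raises transcription of the inducible genes. Many tumour lines, gliomas among them, carry high basal levels of such chaperones.

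The group is called cytosolic with an exception. HSPD1 encodes the mitochondrial chaperonin HSP60, and the other 9 encode proteins of the cytosol and nucleus. HSPA1A (chromosome 6, 31815464 to 31817946) and HSPA1B (chromosome 6, 31827735 to 31830255) are neighbouring near-identical genes on the plus strand, in GENCODE v29 coordinates on GRCh38. Of the 100-base words in the transcripts of HSPA1A, 67.3% also occurred in HSPA1B, and 72.7% of those of HSPA1B occurred in other genes. RSEM divides such reads by estimate, so the split between the pair is uncertain and their sum is less so. For the other 8 genes the shared words made up 0% to 2.37%.

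RefSeq windows of 300 bases around the annotated start (250 before, 50 after; GRCh38.p14) were available for all 10 genes, 16 windows in all. A selection is shown because HSF1 is known to act through repeats of this kind in promoters, and because it sets genes that rose beside genes that did not. The motifs searched were GAANNTTC (head to head) and TTCNNGAA (tail to tail), each its own reverse complement and so the same on both strands; overlapping matches were counted. A row of 3 units was an overlapping pair of matches, one of each. Matches stand in capitals.
HSPA1A, chr6:31815293-31815592, plus strand: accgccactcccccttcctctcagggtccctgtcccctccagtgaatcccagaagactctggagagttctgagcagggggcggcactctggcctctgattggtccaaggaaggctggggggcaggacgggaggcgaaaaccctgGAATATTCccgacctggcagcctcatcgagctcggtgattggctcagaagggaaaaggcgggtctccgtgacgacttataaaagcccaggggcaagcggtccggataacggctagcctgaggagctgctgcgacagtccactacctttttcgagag
HSPA1B, chr6:31827488-31827787, plus strand: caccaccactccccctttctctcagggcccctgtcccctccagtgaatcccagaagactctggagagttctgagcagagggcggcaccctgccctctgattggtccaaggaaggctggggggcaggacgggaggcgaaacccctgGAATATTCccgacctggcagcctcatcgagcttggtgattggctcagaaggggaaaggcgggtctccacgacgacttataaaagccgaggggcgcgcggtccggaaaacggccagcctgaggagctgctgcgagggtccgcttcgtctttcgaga
HSPA8, chr11:123062087-123062386, minus strand: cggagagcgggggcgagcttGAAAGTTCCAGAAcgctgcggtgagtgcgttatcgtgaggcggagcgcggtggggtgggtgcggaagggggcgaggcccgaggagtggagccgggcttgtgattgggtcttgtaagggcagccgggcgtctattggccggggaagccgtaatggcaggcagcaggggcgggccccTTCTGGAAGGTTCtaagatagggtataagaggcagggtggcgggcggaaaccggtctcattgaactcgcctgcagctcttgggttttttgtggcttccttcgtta
HSP90AA1, chr14:102086995-102087294, minus strand: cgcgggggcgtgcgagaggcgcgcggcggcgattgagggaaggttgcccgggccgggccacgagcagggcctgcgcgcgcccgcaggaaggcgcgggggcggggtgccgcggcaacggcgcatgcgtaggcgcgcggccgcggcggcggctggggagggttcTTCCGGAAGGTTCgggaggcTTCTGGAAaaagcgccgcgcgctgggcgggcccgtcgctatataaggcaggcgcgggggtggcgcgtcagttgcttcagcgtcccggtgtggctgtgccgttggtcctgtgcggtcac
DNAJB1, chr19:14518348-14518647, minus strand: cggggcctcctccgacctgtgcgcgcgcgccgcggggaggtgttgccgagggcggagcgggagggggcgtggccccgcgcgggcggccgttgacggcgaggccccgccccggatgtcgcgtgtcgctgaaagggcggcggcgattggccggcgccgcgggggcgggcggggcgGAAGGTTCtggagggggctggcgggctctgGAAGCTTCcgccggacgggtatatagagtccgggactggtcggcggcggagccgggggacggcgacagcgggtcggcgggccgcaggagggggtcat
BAG3, chr10:119651130-119651429, plus strand: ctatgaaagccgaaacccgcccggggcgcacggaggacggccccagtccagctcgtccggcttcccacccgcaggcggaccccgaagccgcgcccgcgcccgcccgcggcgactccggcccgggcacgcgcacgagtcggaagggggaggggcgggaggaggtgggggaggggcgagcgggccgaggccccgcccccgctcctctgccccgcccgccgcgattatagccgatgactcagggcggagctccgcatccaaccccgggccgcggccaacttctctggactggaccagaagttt
Of the 16 windows, 9 (56.2%) held a match and 4 (25.0%) a row of 3 units, and of all 35116 windows of this length 13.5% and 0.49% did. By gene, 8 of the 10 had a match in at least 1 window, and 4 a row of 3 units (HSPA8, HSP90AA1, HSP90AB1 and HSPD1). HSPA1A and HSPA1B held the same single match, at -106 to -99 and -105 to -98 from the start. HSPA8 held 2 rows of 3 units, at -230 to -218 and -55 to -43. The windows of HSPH1 and BAG3 held no match, which says only that these letters are not in the windows. A match is not a site of binding, and binding was not measured here.

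**Figure D1:**
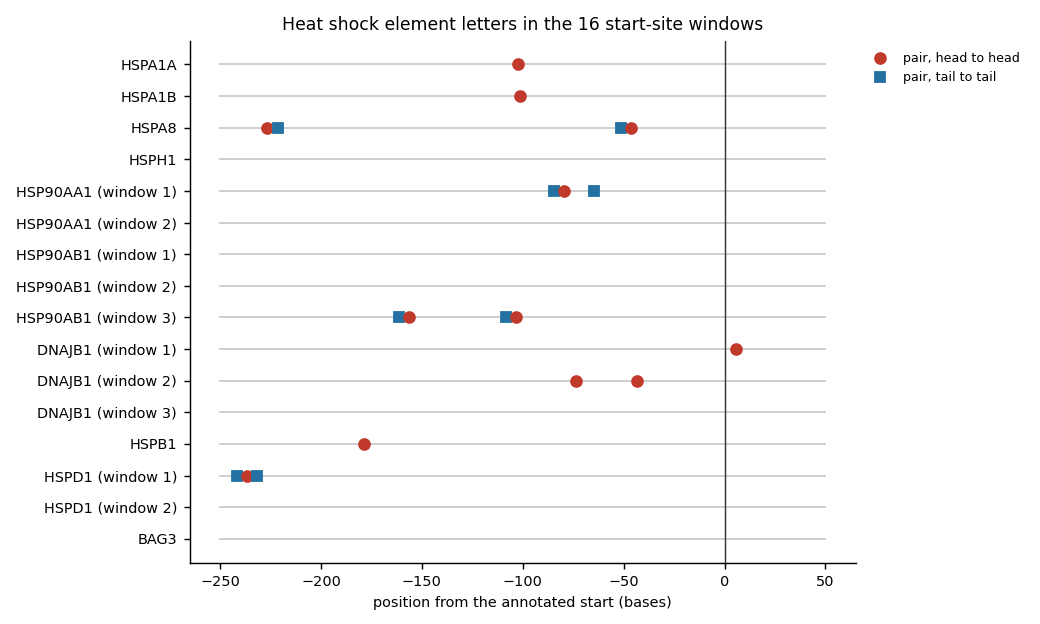
Positions of the 2 heat shock element motifs in the 16 RefSeq start-site windows of the 10 genes, in bases from the annotated start (x axis); each row is a window, circles are head-to-head pairs and squares tail-to-tail pairs. HSPA1A and HSPA1B each show a single match near -106, HSPA8 shows matches near -230 and -55, and none is drawn for HSPH1 or BAG3.

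The libraries held 23.9 M to 33.1 M counts, and the 10 genes had from 1457 counts (BAG3, lowest library) to 52866 (HSP90AB1, highest library). Levels are given in CPM, the usual share of a library's counts, scaled by the TMM factors of edgeR over the 30 libraries. GFAP, which encodes the intermediate filament that defines astrocytes, reached at most 0.205 CPM, S100B 0.25 and AQP4 0.0703, and ALDH1L1 0.0967. These 4 of the 9 astrocyte and glioma markers were thus at or near 0 in a line labelled as astrocytoma. The other 5 were present: VIM at 3719 to 5607 CPM, CD44 at 2183 to 3041, SOX9 at 52.6 to 92.3, SLC1A3 at 18.0 to 35.2 and NES at 4.66 to 16.1. The 5 fibroblast markers (COL1A1, COL1A2, PDGFRB, DCN and LUM) summed to 2384 to 2651 CPM at 500 µg/mL of Soshiho-tang, against 4692 to 5140 at 20. The sum was 3433 to 4214 at 500 of Okbyeongpung-san, against 4696 to 4921 at 20. For Yijin-tang it was 4215 to 4290 at 500, against 4678 to 4788 at 20. In vehicle it was 5645 to 5992. COL1A1 and COL1A2 made up most of the sum, with medians of 3028 and 1503 CPM over the 30 libraries. Mitochondrially encoded transcripts made up 5.68% to 6.80% of counts at 500 µg/mL of Okbyeongpung-san, against 8.11% to 8.36% at 20. They made up 6.93% to 7.79% at 500 of Soshiho-tang, against 6.37% to 9.03% at 20, and 6.70% to 10.6% at 500 of Yijin-tang, against 7.15% to 9.59% at 20. In vehicle the share was 10.5% to 10.7%. The part of these differences in the results below was not tested.

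Per kilobase of exon, in vehicle, HSP90AB1 was the highest of the 10 at 551 ± 16.1 CPM per kb (SD, n = 3), and HSPA8, the constitutive HSP70, followed at 259 ± 6.56. HSP90AA1 had 228 ± 2.82, HSPB1 204 ± 14.7, HSPD1 66.1 ± 0.73 and HSPA1A 55.5 ± 1.47 CPM per kb. HSPA1B had 50.9 ± 1.99, DNAJB1 39.7 ± 1.89, BAG3 26.4 ± 0.43 and HSPH1 15.4 ± 0.35 CPM per kb. The 3 vehicle libraries of neighbours in this order did not overlap, although the split between HSPA1A and HSPA1B is uncertain. The length used was that of all annotated GENCODE v29 exons merged, not of the expressed transcripts, and the order depends on it. In CPM alone HSPH1 had 129 and BAG3 72.6, over 8.39 and 2.75 kb of exon. The spread between libraries does not cover this choice of length.

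**Figure D2:**
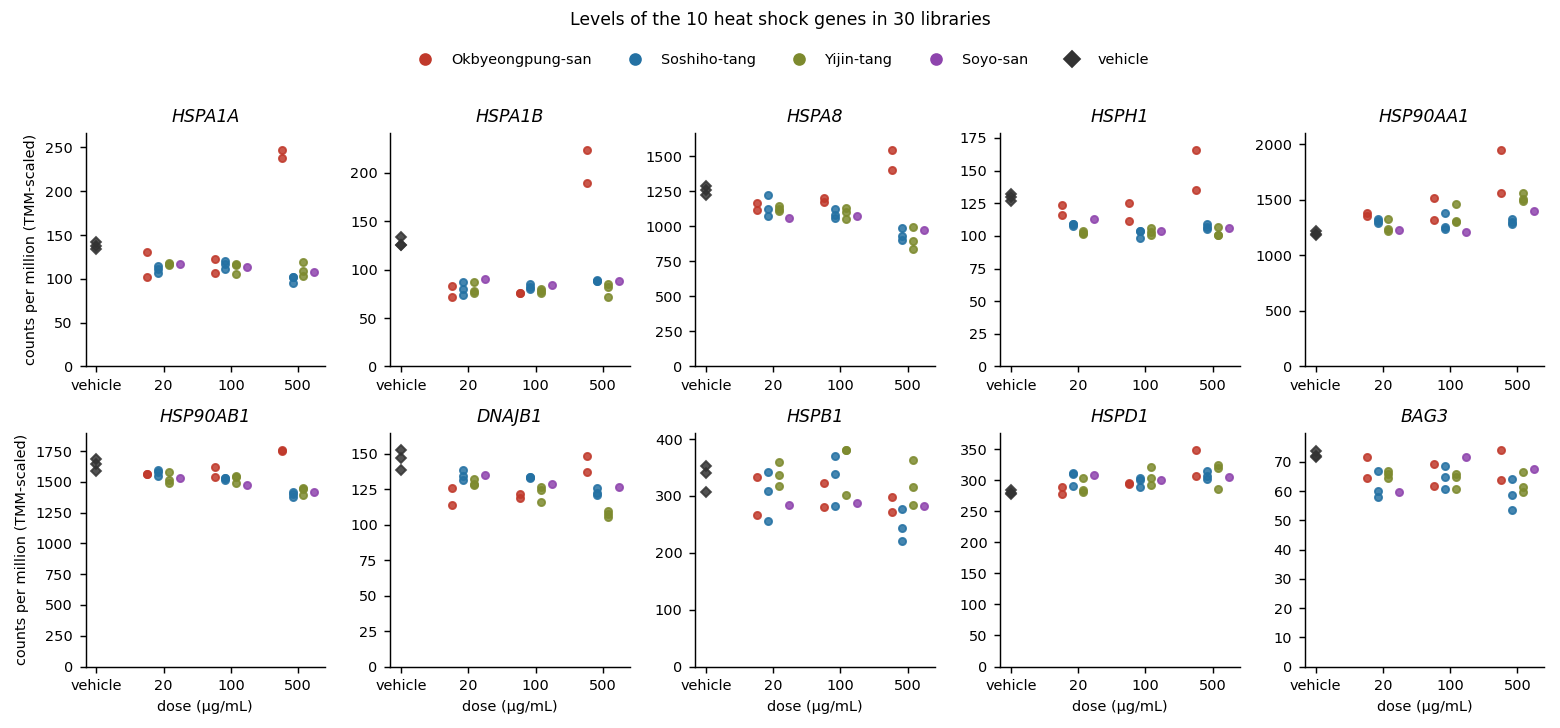
TMM-scaled CPM (y axis, from 0) of the 10 genes in each of the 30 libraries, by dose (x axis) and extract (colour); diamonds are vehicle. The 2 Okbyeongpung-san libraries at 500 µg/mL lie above every other library in HSPA1A (247 and 238 CPM) and HSPA1B (224 and 190 CPM). At 20 and 100 µg/mL the 4 extracts lie below vehicle in HSPA1A and HSPA1B.

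Okbyeongpung-san at 500 µg/mL raised the inducible HSP70 genes. HSPA1B was 2.67-fold and HSPA1A 2.08-fold as high at 500 as at 20 µg/mL of the same extract, and HSPA8 was 1.29-fold as high. The other 7 genes did not pass the test in this comparison. HSPH1 and HSP90AA1 were called in alternative analyses, with DESeq2 and with no filter on low counts. In the 27-library fit both were called, and so were HSP90AB1, DNAJB1 and HSPD1. Of the 10 genes, 3 rose and 0 fell, where 5.21% of the 16643 tested genes rose and 5.1% fell. The median log2 fold change of the 10 was 0.28, and that of all genes tested was 0.00. In Soshiho-tang at the same doses 0 rose and 4 fell, where 14.6% of the 16872 tested genes rose and 14.2% fell. The genes that fell were HSPA8, HSP90AB1, HSPA1A and DNAJB1, with log2 fold changes of -0.28 to -0.13. The median of the 10 was -0.10, and that of all genes tested was 0.01. All p-values come from the quasi-likelihood test of edgeR, adjusted by Benjamini-Hochberg over every gene tested, and a gene is called where the adjusted p is under 0.05. The errors of log2 fold changes are standard errors.

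HSPA1A and HSPA1B encode the same stress-inducible HSP70. In the 2 Okbyeongpung-san libraries at 500 µg/mL, HSPA1A had 247 and 238 CPM, against 102 and 130 CPM at 20 µg/mL. HSPA1B had 224 and 190 CPM at 500, against 71.8 and 82.8 at 20. The 2 doses did not overlap in either gene. The log2 fold changes were 1.06 ± 0.11 (adjusted p = 0.000505) for HSPA1A and 1.41 ± 0.10 (adjusted p = 7.01e-05) for HSPA1B.

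The Okbyeongpung-san titles carry 2 batch letters, with 1 library per dose in each, so the change could be read within each batch. For HSPA1A the log2 ratio of 500 to 20 µg/mL was 1.28 in batch E and 0.868 in batch D. For HSPA1B it was 1.64 in batch E and 1.20 in batch D. Both genes were higher at 500 in both batches. At 100 µg/mL HSPA1A had 107 CPM in batch E and 122 in batch D, and HSPA1B had 76.4 and 75.8, near the values at 20.

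With both genes summed before the fit, the log2 fold change was 1.21 ± 0.10 (adjusted p = 0.000171). The sum was 470 and 427 CPM in the 2 Okbyeongpung-san libraries at 500 µg/mL, and 174 to 213 CPM in the 25 libraries of the other extract doses, against 260 to 276 CPM in vehicle. The sums at 500 µg/mL of Okbyeongpung-san thus lay above all other libraries, and the vehicle libraries lay above the other 25. The share of the sum assigned to HSPA1B was 47.5% and 44.4% at 500 and 41.3% and 38.9% at 20 of Okbyeongpung-san, and 47.7% to 48.6% in vehicle.

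In Soshiho-tang HSPA1A fell by a small amount. It had 102, 102 and 95.1 CPM at 500, against 111, 107 and 114 at 20 µg/mL, a log2 fold change of -0.15 ± 0.05 (adjusted p = 0.0323). HSPA1B had 87.8, 88.8 and 88.5 CPM at 500, against 79.8, 87.3 and 73.9 at 20, a log2 fold change of 0.14 ± 0.07 (adjusted p = 0.126). In both genes the doses did not overlap, the signs were opposite, and the sum gave -0.02 ± 0.04 (adjusted p = 0.744). HSPA1A lost its call in the sum, with no filter, in the 27-library fit and without the Soshiho-tang libraries 500 replicate 2, 500 replicate 3, 20 replicate 1 and 20 replicate 3, with adjusted p of 0.0514 to 0.142 in those fits other than the sum. HSPA1B was called without 20 replicate 2 (0.20, adjusted p = 0.0371).

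HSPA8 encodes the constitutive HSP70 of the cytosol, which takes part in folding and in clathrin uncoating. It had 1543 and 1399 CPM at 500 µg/mL of Okbyeongpung-san, against 1114 and 1169 at 20, a log2 fold change of 0.36 ± 0.08 (adjusted p = 0.0152). The doses did not overlap. It had 988, 928 and 903 CPM at 500 of Soshiho-tang, against 1120, 1073 and 1226 at 20, a log2 fold change of -0.28 ± 0.06 (adjusted p = 0.000663). It also fell at 500 of Yijin-tang, with 841, 897 and 993 CPM against 1108, 1121 and 1141 at 20 (log2 fold change -0.31 ± 0.06, adjusted p = 0.0016). The rise of HSPA8 in Okbyeongpung-san was not called without its libraries 500 replicate 2 (log2 fold change 0.28, adjusted p = 0.0559) or 20 replicate 2 (0.34, adjusted p = 0.0996), nor when the 2 groups were fitted alone (adjusted p = 0.166).

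DNAJB1, a J-domain co-chaperone that delivers unfolded protein to HSP70, had 137 and 148 CPM at 500 of Okbyeongpung-san, against 114 and 126 at 20 (log2 fold change 0.24 ± 0.08, adjusted p = 0.0872, not called). It had 126, 122 and 121 CPM at 500 of Soshiho-tang, against 139, 134 and 131 at 20 (log2 fold change -0.13 ± 0.04, adjusted p = 0.0243). It was not called in Soshiho-tang without 500 replicate 2, 500 replicate 3 or 20 replicate 1 (adjusted p = 0.0812, 0.0836 and 0.111) or with no filter (adjusted p = 0.151). In Yijin-tang it had 110, 107 and 105 CPM at 500, against 128, 129 and 132 at 20 (log2 fold change -0.28 ± 0.04, adjusted p = 0.000285).

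HSPH1 encodes an HSP110 that exchanges the nucleotide of HSP70, and BAG3 a further exchange factor that links HSP70 to autophagy. HSPH1 had 166 and 135 CPM at 500 of Okbyeongpung-san, against 124 and 116 at 20 (log2 fold change 0.33 ± 0.11, adjusted p = 0.0798, not called). The change was called without the library 500 replicate 3 (0.47, adjusted p = 0.0141). In Soshiho-tang HSPH1 had 109, 107 and 105 CPM at 500 and 109, 109 and 107 at 20 (adjusted p = 0.812). BAG3 had 63.9 and 74.0 CPM at 500 of Okbyeongpung-san and 64.6 and 71.6 at 20, overlapping ranges (log2 fold change 0.01, adjusted p = 0.945). In Soshiho-tang it had 53.6 to 64.2 CPM at 500 and 57.9 to 67.1 at 20 (adjusted p = 0.498).

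HSP90AA1 is the more stress-responsive of the 2 cytosolic HSP90 genes, and HSP90AB1 the more constitutive. HSP90AA1 had 1949 and 1559 CPM at 500 of Okbyeongpung-san, against 1380 and 1357 at 20 (log2 fold change 0.36 ± 0.11, adjusted p = 0.0697, not called). It was called without 500 replicate 3 (0.52, adjusted p = 0.00819). It rose at 500 of Yijin-tang, with 1505, 1489 and 1566 CPM against 1241, 1220 and 1327 at 20 (log2 fold change 0.26 ± 0.05, adjusted p = 0.00346). In Soshiho-tang it had 1281 to 1325 CPM at 500 and 1290 to 1332 at 20 (adjusted p = 0.945). HSP90AB1 had 1758 and 1749 CPM at 500 of Okbyeongpung-san, against 1562 and 1562 at 20 (log2 fold change 0.16 ± 0.07, adjusted p = 0.164, not called). It fell at 500 of Soshiho-tang, with 1403, 1374 and 1414 CPM against 1550, 1584 and 1595 at 20 (log2 fold change -0.17 ± 0.04, adjusted p = 0.0019).

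HSPB1, the small heat shock protein HSP27, had the largest SD relative to its mean of the 10 in vehicle. It had 273 and 299 CPM at 500 of Okbyeongpung-san and 267 and 334 at 20, overlapping values (log2 fold change -0.08 ± 0.12, adjusted p = 0.731). It had 278, 243 and 221 CPM at 500 of Soshiho-tang and 310, 256 and 343 at 20, with a log2 fold change of -0.29 ± 0.11 (adjusted p = 0.0633, not called). Without the library 500 replicate 1 or without 20 replicate 2 it was called (-0.38 and -0.40, adjusted p = 0.0313 and 0.0152). HSPD1 had 349 and 307 CPM at 500 of Okbyeongpung-san, against 278 and 288 at 20 (log2 fold change 0.21 ± 0.08, adjusted p = 0.133), and was called without 500 replicate 3 (0.31, adjusted p = 0.0263). Yijin-tang gave 1 rise (HSP90AA1) and 2 falls (HSPA8 and DNAJB1) among the 10, where 2.7% of genes rose and 2.94% fell. HSP90AB1 was not called there by edgeR (log2 fold change -0.11 ± 0.04, adjusted p = 0.127). DESeq2 called it lower (-0.11, adjusted p = 0.00529). In Soshiho-tang HSPD1 had 302 to 315 CPM at 500 and 292 to 312 at 20 (adjusted p = 0.864).

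**Figure D3:**
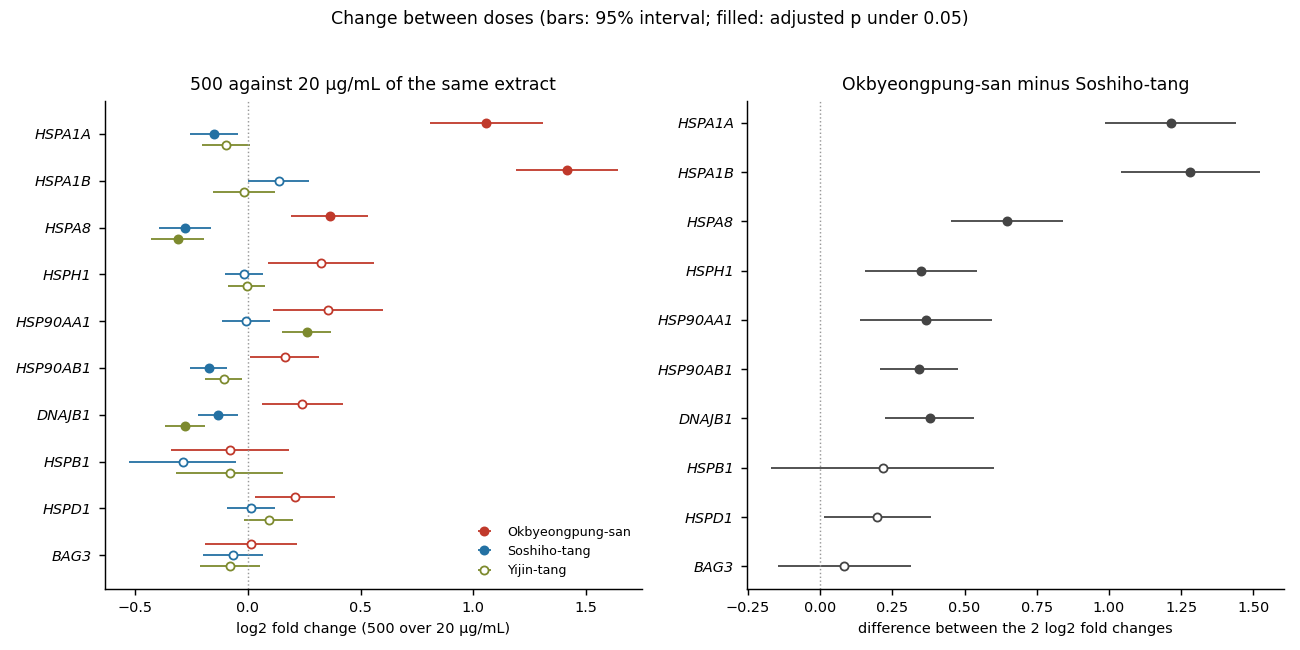
Log2 fold change of 500 over 20 µg/mL for the 10 genes in 3 extracts (left), and the difference of those changes, Okbyeongpung-san minus Soshiho-tang (right); points are edgeR estimates, bars 95% intervals, and filled points have an adjusted p under 0.05. HSPA1A (1.06) and HSPA1B (1.41) stand apart in Okbyeongpung-san, and all 10 differences lie above 0, 7 of them filled.

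The dose response of the 2 extracts was then compared directly, as the difference between their log2 fold changes from 20 to 500 µg/mL in a fit of 27 libraries. By library name the 2 extracts belong to different library sets. Okbyeongpung-san spans title batches E and D, and Soshiho-tang has batch E alone. Extract and library set therefore cannot be told apart in this difference. All 10 differences were positive, and 7 were called. Of the 17396 genes tested, 4.25% were called higher and 3.17% lower. The median difference was 0.36 over the 10 and 0.00 over all genes tested.

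The difference was 1.21 ± 0.11 for HSPA1A and 1.28 ± 0.12 for HSPA1B, both with adjusted p = 1.19e-07. For the 2 genes summed it was 1.24 ± 0.09 (adjusted p = 4.85e-09). HSPA8 followed with 0.65 ± 0.09 (adjusted p = 8.98e-05), DNAJB1 with 0.38 ± 0.07 (adjusted p = 0.002) and HSP90AB1 with 0.34 ± 0.07 (adjusted p = 0.00163). These 5 kept their call without any 1 library. HSP90AB1 was not called when the 4 groups were fitted alone (adjusted p = 0.0553).

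HSP90AA1 (0.37 ± 0.11, adjusted p = 0.0434) and HSPH1 (0.35 ± 0.09, adjusted p = 0.023) were called with all libraries, and lost the call in some of the fits that left 1 library out. Without the library 500 replicate 2 of Okbyeongpung-san they were 0.19 (adjusted p = 0.357) and 0.18 (adjusted p = 0.24). Leaving out 20 replicate 3 of Okbyeongpung-san, 20 replicate 1, 500 replicate 2 or 500 replicate 3 of Soshiho-tang also ended both calls, with differences of 0.30 to 0.37 and adjusted p of 0.0504 to 0.101. That of HSP90AA1 also ended without 20 replicate 2 of Okbyeongpung-san, or 500 replicate 1 or 20 replicate 2 of Soshiho-tang (0.38, 0.37 and 0.36, adjusted p = 0.0923, 0.0683 and 0.0777). The differences of HSPB1 (0.22 ± 0.19), HSPD1 (0.20 ± 0.09) and BAG3 (0.08 ± 0.11) were not called, with adjusted p of 0.55, 0.2 and 0.717. The 95% interval of BAG3 ran from -0.15 to 0.31, and that of HSPB1 from -0.17 to 0.60. HSPD1 was called without 500 replicate 3 of Okbyeongpung-san (0.29, adjusted p = 0.0459).

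The comparison of 100 with 20 µg/mL called 0 of the 10 genes in any of the 3 extracts. It called 0.0711% of all genes in Soshiho-tang, 0.00593% in Yijin-tang and 0% in Okbyeongpung-san. At an unadjusted p under 0.05, 1 of the 10 passed in Soshiho-tang, 1 in Yijin-tang and 0 in Okbyeongpung-san, where 3.66%, 3.66% and 0.925% of all genes did, in the same order. DESeq2 called 0 of the 10 in these comparisons.

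The comparisons with vehicle cannot be told apart from the library set, because the vehicle libraries were named as a set of their own. At 500 µg/mL of Okbyeongpung-san 5 of the 10 rose and 0 fell against vehicle, where 13.3% of genes rose and 11.4% fell. HSPA1A changed by 0.82 ± 0.10 (adjusted p = 0.000461), HSPA1B by 0.70 ± 0.09 (adjusted p = 0.000567) and HSP90AA1 by 0.56 ± 0.10 (adjusted p = 0.00326). HSPA8 (0.24 ± 0.07, adjusted p = 0.0325) and HSPD1 (0.23 ± 0.07, adjusted p = 0.041) were not called with the replicate block (adjusted p = 0.0587 and 0.0758), or without any 1 of the 3 vehicle libraries (0.21 to 0.24, adjusted p = 0.0711 to 0.138), or without the library 500 replicate 2 (0.14 and 0.12, adjusted p = 0.189 and 0.288). HSPH1 was called without 500 replicate 3 (0.36, adjusted p = 0.018).

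At 500 µg/mL of Soshiho-tang 8 of the 10 fell and 0 rose against vehicle, where 22.8% of genes rose and 21.1% fell. HSPA1B changed by -0.55 ± 0.06, HSPA1A by -0.48 ± 0.05 and HSPA8 by -0.43 ± 0.06, with adjusted p of 6.72e-07, 1.65e-07 and 2.48e-06. HSP90AA1 and HSPD1 were not called. Yijin-tang at 500 gave 7 falls and 1 rise, HSP90AA1 (0.33 ± 0.05, adjusted p = 6.15e-05), where 16% of genes rose and 15.2% fell. BAG3 was not called there without 500 replicate 1 (adjusted p = 0.0507), and HSPD1 was called without 500 replicate 3 (0.19, adjusted p = 0.00618).

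HSPA1B was lower at 20 µg/mL than in vehicle in each extract: by -0.72 ± 0.09 in Okbyeongpung-san (adjusted p = 0.0114), -0.69 ± 0.07 in Soshiho-tang (adjusted p = 1.23e-06) and -0.67 ± 0.07 in Yijin-tang (adjusted p = 1.48e-06). The 3 comparisons share the vehicle libraries. With HSPA1A and HSPA1B summed the changes were -0.46 (adjusted p = 0.0407), -0.49 (adjusted p = 1.46e-07) and -0.43 (adjusted p = 9.55e-07), in the same order. HSPA1B made up 38.9% to 41.3% of the pair's counts at 20 of Okbyeongpung-san, 39.3% to 45.0% at 20 of Soshiho-tang and 39.4% to 43.2% at 20 of Yijin-tang, against 47.7% to 48.6% in vehicle. The call in Okbyeongpung-san ended without any 1 vehicle library or either 20 µg/mL library (adjusted p = 0.0517 to 0.0855). HSPA1B was the only member called in Okbyeongpung-san at 20, where 1.18% of genes rose and 1.06% fell. Of the 10, 5 fell in Soshiho-tang at 20, where 11.3% of genes rose and 10.5% fell, and 5 fell in Yijin-tang at 20, where 10.6% rose and 9.2% fell. In both, these included HSPA1A, HSPA1B, HSPH1 and DNAJB1. DNAJB1 was not called in Soshiho-tang at 20 without vehicle replicate 1, vehicle replicate 2, 20 replicate 2 or 20 replicate 3 (adjusted p = 0.0844 to 0.166). Its call also ended with no filter, in the 27-library fit and with own groups only (adjusted p = 0.268, 0.0576 and 0.128). HSPA8 was not called in Yijin-tang at 20 without any 1 of the 6 libraries compared (adjusted p = 0.0664 to 0.125). That call also ended with no filter and in the 27-library fit (adjusted p = 0.0632 and 0.0598). In Soshiho-tang at 20 HSPA8 was called without 20 replicate 3 (-0.21, adjusted p = 0.0177).

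**Figure D4:**
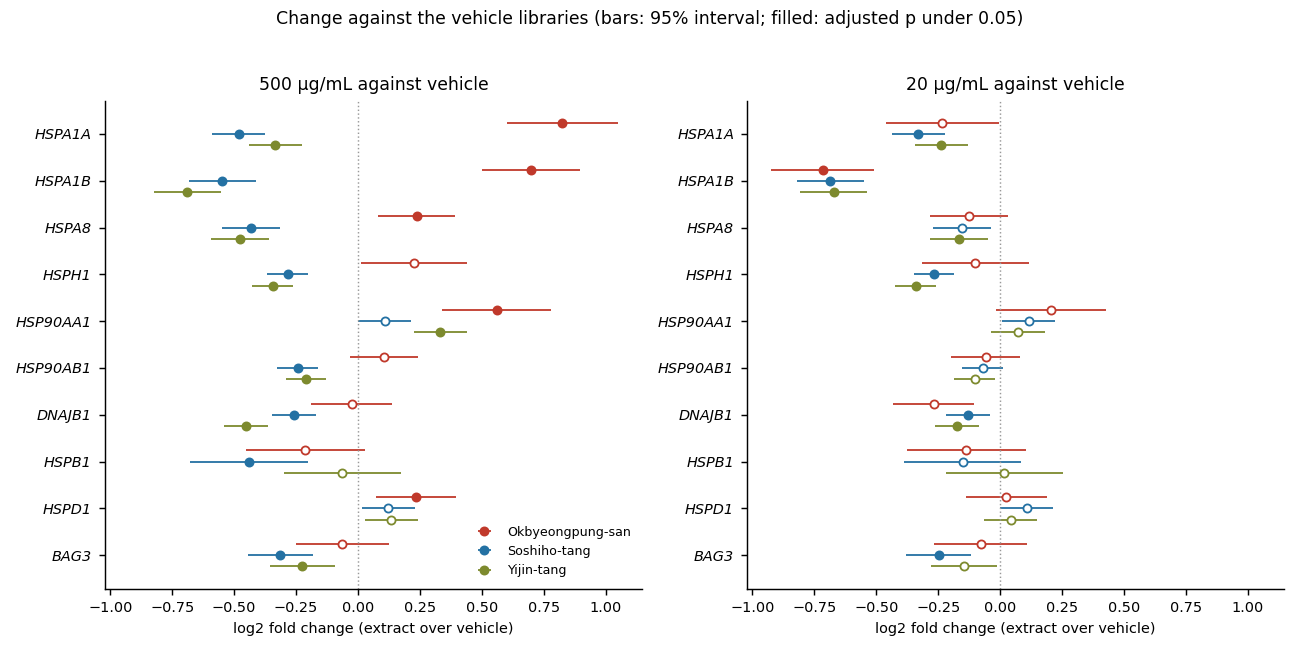
Log2 fold change of 500 µg/mL (left) and 20 µg/mL (right) over vehicle for the 10 genes in 3 extracts; bars are 95% intervals and filled points have an adjusted p under 0.05. At 20 µg/mL HSPA1B lies between -0.72 and -0.67 in the 3 extracts and HSPH1 between -0.34 and -0.10, and at 500 µg/mL HSPA1A and HSPA1B lie above 0 in Okbyeongpung-san and below 0 in Soshiho-tang and Yijin-tang.

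Soyo-san had 1 library per dose, so its values carry no test. Its titles carry batch letter D and those of vehicle batch letter E. Extract and title batch therefore cannot be told apart in these ratios. At 20, 100 and 500 µg/mL, the log2 ratio to the vehicle mean (on CPM + 1) of HSPA1A was -0.24, -0.28 and -0.35, and that of HSPA1B -0.49, -0.60 and -0.53. HSPA8 had 1055, 1070 and 970 CPM in the same order of doses. HSP90AA1 was above all vehicle libraries at 20 and 500, with 1228 and 1401 CPM, and within them at 100, with 1214 CPM. HSPD1 was above them at all 3 doses, with 308, 299.9 and 305 CPM. Of the 10 genes, 8 were below all vehicle libraries and 2 above at 20 µg/mL, where 30.3% of 17396 genes were below and 35.1% above. At 100 it was 7 below and 1 above, where 30.2% of genes were below and 33.7% above. At 500 it was 8 below and 2 above, where 30.8% of genes were below and 37.7% above.

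Other genes of the chaperone network were read from lists. At 500 against 20 µg/mL, 5.21% of all genes rose and 5.1% fell in Okbyeongpung-san. In Soshiho-tang 14.6% of all genes rose and 14.2% fell. Among 32 proteasome subunits, which degrade proteins that fail to fold, 31 rose at 500 against 20 µg/mL of Okbyeongpung-san, all but PSMD8. Their median log2 fold change was 0.71, from 0.32 to 1.07, and that of all genes was 0.00. In Soshiho-tang 2 of 32 rose (median 0.06), where 14.6% of all genes rose. The count was 0 without 500 replicate 1, 500 replicate 2, 20 replicate 1 or 20 replicate 2. The median in Yijin-tang was -0.02. The difference between Okbyeongpung-san and Soshiho-tang was called for 30 of 32, all higher in Okbyeongpung-san, where 4.25% of all genes were. PSMD13, a lid subunit, had 154 and 143 CPM at 500 of Okbyeongpung-san, against 73.8 and 67.1 at 20 (log2 fold change 1.07 ± 0.09, adjusted p = 0.000141). PSMA5 (0.87 ± 0.14), PSMA2 (0.86 ± 0.18) and PSMD14 (0.81 ± 0.08) followed, of which PSMA2 was not called without 500 replicate 3 or 20 replicate 2 (adjusted p = 0.0699 and 0.115). Without the library 20 replicate 2 of Okbyeongpung-san 16 of the 32 were called, and 18 in the difference, and 20 when its 2 groups were fitted alone. The median ratio of the subunits to the vehicle mean was 1.47 and 1.68 at 500 of Okbyeongpung-san, and 0.926 and 1.05 at 20.

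Of 24 further textbook targets of HSF1, 6 rose and 0 fell at 500 of Okbyeongpung-san (median 0.23), where 5.21% of all genes rose. HSPA6, described below, is left out of this count because it passed the filter only through the libraries at 500. With HSPA6 kept in the list, 4 rose without 20 replicate 2 of Okbyeongpung-san and 12 in the 27-library fit. Of the 24 tested in Soshiho-tang 2 rose and 6 fell (median -0.02), where 14.6% of all genes rose and 14.2% fell. The difference between the extracts was called for 9 of 25, all higher in Okbyeongpung-san, where 4.25% of all genes were. HSPA6 is included in the 25 and was not called. HSPB8, a small heat shock protein that works with BAG3, had 51.2 and 48.5 CPM at 500 of Okbyeongpung-san, against 19.2 and 16.8 at 20 (log2 fold change 1.46 ± 0.09, adjusted p = 1.88e-05). The difference from Soshiho-tang was 1.64 ± 0.11 (adjusted p = 4.79e-10). ZFAND2A, an arsenite-inducible proteasome adaptor, rose by 0.91 ± 0.12 (adjusted p = 0.00183), and CHMP5, an ESCRT-III subunit, by 0.66 ± 0.09 (adjusted p = 0.00174).

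HSPA6, a strictly stress-inducible human HSP70, stayed low. It had 1.55 and 1.51 CPM at 500 of Okbyeongpung-san (41 counts in each library), against 0.152 and 0.161 at 20 (4 and 5 counts). It passed the filter on low counts only through the libraries at 500, so that it had to differ, and no test of it is given for this comparison. It had 0.358 to 0.478 CPM at 500 of Soshiho-tang and 0.112 to 0.223 at 20, and the difference between extracts was not called (1.81 ± 0.54, adjusted p = 0.0815). Of the 100-base words of HSPA6, 27.6% also occurred in HSPA7, so its counts are uncertain.

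Of 17 tested J-domain co-chaperones of the cytosol and nucleus, 1 rose in Okbyeongpung-san, where 5.21% of all genes rose: DNAJA1, a partner of HSP70 and HSC70 (0.41 ± 0.10, adjusted p = 0.0339). It was not called without 500 replicate 2 or 20 replicate 2 (adjusted p = 0.167 and 0.202). In Soshiho-tang 1 of 17 rose and 5 fell, where 14.6% of all genes rose and 14.2% fell. Among those that fell were DNAJA1 (-0.24 ± 0.06, adjusted p = 0.00488) and DNAJB4 (-0.45 ± 0.04, adjusted p = 6.13e-08). The falls numbered 2 without 500 replicate 1, and 3 without 500 replicate 3, 20 replicate 1 or 20 replicate 3. The difference between the extracts for DNAJA1 was 0.65 (adjusted p = 0.00071).

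Of 7 tested HSP70 and HSP110 genes outside the 10, HSPA6 left out, 2 rose in Okbyeongpung-san (HSPA12A and HSPA13) and 1 fell (HSPA2). Of all genes, 5.21% rose there and 5.1% fell. Without 500 replicate 2 or 20 replicate 3 the calls of HSPA12A, HSPA13 and HSPA2 ended, and without 20 replicate 2 those of HSPA13 and HSPA2 (adjusted p = 0.0532 to 0.205). In Soshiho-tang, of 8 tested, 1 rose (HSPA12A) and 3 fell (HSPA2, HSPA4L and HSPA14), where 14.6% of all genes rose and 14.2% fell. HSPA2, an HSP70 best known from the testis, had 13.8 and 16.4 CPM at 500 of Okbyeongpung-san, against 20.0 and 20.2 at 20. In Soshiho-tang it had 12.2 to 14.2 CPM at 500, against 18.0 to 20.1 at 20 (log2 fold change -0.52 ± 0.07, adjusted p = 2.35e-06), and the call held without any 1 library. The other calls in Soshiho-tang ended without single libraries: HSPA12A without 500 replicate 2, 500 replicate 3 or 20 replicate 2, HSPA14 without 500 replicate 1, 500 replicate 2, 20 replicate 2 or 20 replicate 3, and HSPA4L without any but 500 replicate 2 (adjusted p = 0.06 to 0.195).

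Of 9 exchange factors and other HSP70 co-chaperones 1 rose in Okbyeongpung-san, where 5.21% of all genes rose. This was BAG2, which inhibits the ubiquitin ligase CHIP (0.46 ± 0.08, adjusted p = 0.00798). Without 500 replicate 2 it was 0.39 (adjusted p = 0.0518), and without 500 replicate 3 the list had 3 calls. Of 13 HSP90 co-chaperones 3 rose in Okbyeongpung-san, where 5.21% of all genes rose: TTC4 (0.55 ± 0.08, adjusted p = 0.00264), UNC45A and PTGES3. UNC45A was not called without 500 replicate 2, 20 replicate 2 or 20 replicate 3, nor PTGES3 without 500 replicate 3, 20 replicate 2 or 20 replicate 3 (adjusted p = 0.075 to 0.194). TTC4 also rose in Soshiho-tang (0.34 ± 0.05, adjusted p = 1.45e-05).

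Of 5 tested small heat shock proteins besides HSPB1, HSPB8 rose in Okbyeongpung-san and HSPB3 fell in Soshiho-tang (-1.09 ± 0.33, adjusted p = 0.0142). Of all genes, 5.21% rose in Okbyeongpung-san and 14.2% fell in Soshiho-tang. HSPB3 was not called without 500 replicate 1 or 500 replicate 2 of Soshiho-tang (adjusted p = 0.054 and 0.0795). Of the 8 subunits of TRiC, the cytosolic chaperonin that folds actin and tubulin, edgeR called 0 in Okbyeongpung-san (median 0.19, 3 at an unadjusted p under 0.05, 1 called by DESeq2) and 0 in Soshiho-tang (median -0.05, 1 unadjusted, 1 by DESeq2). Of all genes, 25.9% and 38% had an unadjusted p under 0.05, in the same order. Without 500 replicate 3 of Okbyeongpung-san 2 were called there, and without 20 replicate 3 of Soshiho-tang 1. Among 6 tested heat shock factors and regulators SIRT1, a deacetylase of HSF1, rose in Soshiho-tang (0.15 ± 0.05, adjusted p = 0.0201), where 14.6% of all genes rose. SIRT1 was not called without 500 replicate 1, 500 replicate 2, 20 replicate 2 or 20 replicate 3 (adjusted p = 0.0547 to 0.0677).

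A pair of mitochondrial genes rose in both extracts. HSPA9, the mitochondrial HSP70, had 549 and 508 CPM at 500 of Okbyeongpung-san, against 383 and 372 at 20 (log2 fold change 0.48 ± 0.07, adjusted p = 0.00286). In Soshiho-tang it had 580 to 614 CPM at 500, against 383 to 407 at 20 (0.59 ± 0.05, adjusted p = 3.3e-09). LONP1, the matrix protease, changed by 0.56 ± 0.09 in Okbyeongpung-san and by 0.63 ± 0.06 in Soshiho-tang. Of the 12 mitochondrial chaperones 2 rose in Okbyeongpung-san and 5 in Soshiho-tang, where 5.21% and 14.6% of all genes rose, in the same order. The count in Soshiho-tang was 3 without 500 replicate 2, 500 replicate 3 or 20 replicate 1. The difference between the extracts was called by edgeR for 0 of 12, with 1 at an unadjusted p under 0.05, where 21.3% of all genes passed it. Without 500 replicate 2 of Okbyeongpung-san, and with the replicate block, 1 was called.

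Of 14 endoplasmic reticulum chaperones 4 rose in Okbyeongpung-san, where 5.21% of all genes rose. DNAJB9, a J-domain protein induced by the unfolded protein response, led them (0.82 ± 0.07, adjusted p = 0.000187). The list had 1 call without 500 replicate 2 or 20 replicate 2, and 2 without 20 replicate 3. In Soshiho-tang DNAJB9 rose too (0.54 ± 0.07, adjusted p = 2.18e-06). HYOU1 and HSP90B1 fell there, each by 0.15 on the log2 scale, where 14.2% of all genes fell. The falls numbered 0 to 4 with single libraries left out. They numbered 0 without 500 replicate 3 or 20 replicate 1, 1 without 500 replicate 2 or 20 replicate 3, and 4 without 500 replicate 1 or 20 replicate 2.

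**Figure D5:**
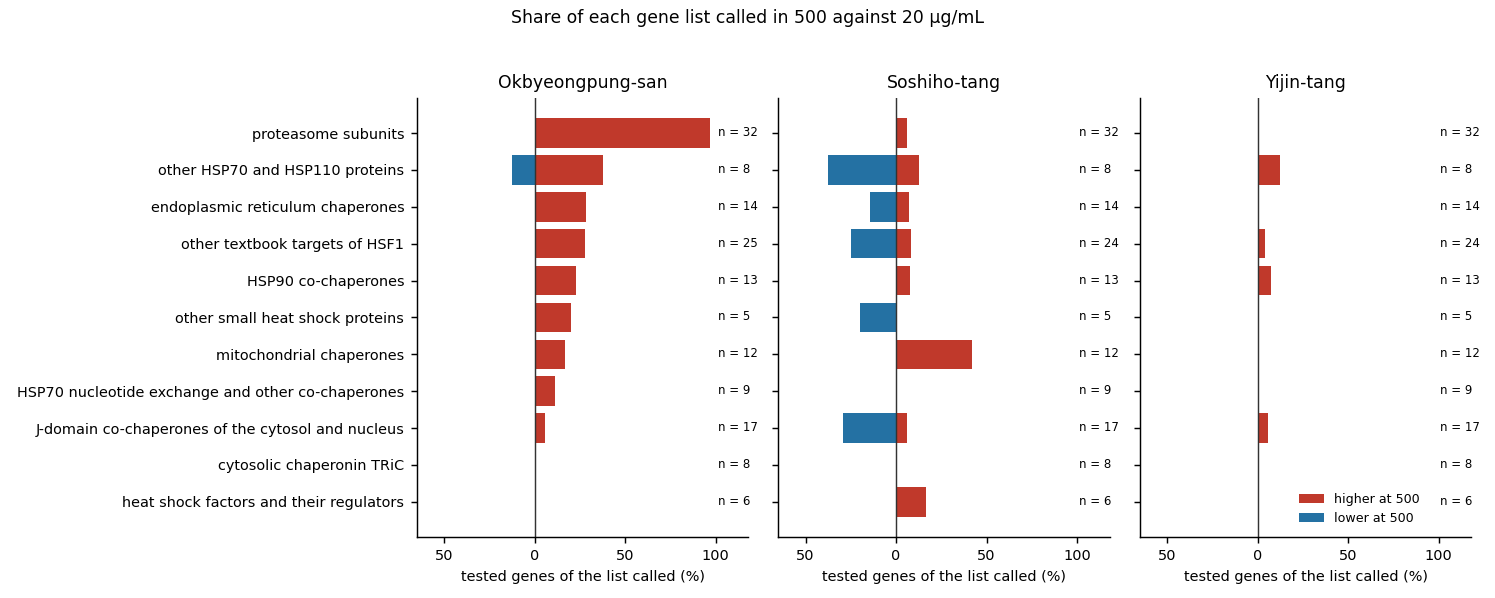
Share of the tested genes of each list (x axis, percent of n) with an adjusted p under 0.05 at 500 against 20 µg/mL, higher (bars to the right) or lower (bars to the left), in 3 extracts. Proteasome subunits reach 31 of 32 in Okbyeongpung-san and 2 of 32 in Soshiho-tang, and mitochondrial chaperones 2 of 12 and 5 of 12. Of all genes tested, 5.21% rose in Okbyeongpung-san and 14.6% in Soshiho-tang. HSPA6 is counted in the Okbyeongpung-san bars of the HSF1 target and HSP70 lists.

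Across all 30 libraries, the genes outside the 10 whose log2(CPM + 1) followed the sum of HSPA1A and HSPA1B most closely were HSPB8 (Pearson's r = 0.95), B4GALNT1 (0.92), PSMD11 (0.91), SNX29 (0.89), DNM1 (0.88) and NDRG1 (0.88), out of 9791 genes with a mean of at least 10 CPM. For HSP90AA1 they were STK17A (0.85), TAX1BP1 (0.85), BLMH (0.84), HACL1 (0.84), HSD17B12 (0.84) and HSD17B4 (0.83). These r values describe libraries that share extracts, sets and batches. They are given over all 30 libraries, the 2 highest for HSPA1A and HSPA1B included.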

How the data were processed

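Expected counts, one value for each Ensembl gene identifier and library, were deposited by the authors. Per the submitters' processing notes, RSEM 1.3.3, STAR 2.7.3a, Trim Galore 0.6.5 and FastQC 0.11.9 were used, with hg38 and GRCh38 as build names. Which annotation release was used, and whether counting used strand, is not given in the sources used here. Per the labels' protocols, libraries were directional and read as paired ends of 100 bases. The 30 columns of libraries were matched by title, and another 30 columns were blank. Of 60675 gene identifiers, 57055 matched GENCODE v29, the source of symbols and coordinates. Start-site windows are from RefSeq on GRCh38.p14.

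Expected counts were rounded and tested with edgeR 4.0.16 (limma 3.58.1, R 4.3.3): TMM scaling, filterByExpr with a minimum count of 10 and total of 15, quasi-likelihood tests, and Benjamini-Hochberg adjustment over all genes tested, with a threshold of 0.05. One fit held vehicle, Soshiho-tang and Yijin-tang (21 libraries), another vehicle and Okbyeongpung-san (9 libraries), and the last all but Soyo-san (27 libraries) for the difference between extracts. DESeq2 1.42.0 was an alternative. The script was tested on simulated data. No 2 libraries of a group were duplicates (chi-square over degrees of freedom 3.21 to 39.5 in 24 pairs). Same-numbered Okbyeongpung-san libraries shared a title batch, so the numbers pair them (correlation of deviations 0.21 for 500 against 20). Those of the other extracts did not pair. The replicate block, an alternative, put the replicate number into the fit. All vehicle titles carry batch letter E, so in comparisons with vehicle the block does not adjust for title batch. All Soshiho-tang titles carry letter E too, while those of Okbyeongpung-san carry E or D by replicate number. In the difference between extracts the block therefore does not adjust for title batch either.

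The members and gene lists were chosen with earlier results of these data known. Named genes were the 10 members in every comparison, up to 4 genes per list with the largest change among those called at 500 against 20 µg/mL in Okbyeongpung-san and in Soshiho-tang, and the 6 genes most like HSPA1A plus HSPA1B and HSP90AA1. Water extracts and wortmannin, named in the series text, were not analysed here.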

Additional observations from a re-analysis of the deposited data

Results flagged for a closer look

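The difference between the log2 fold changes from 20 to 500 µg/mL, Okbyeongpung-san minus Soshiho-tang, passed the threshold for 7 of the 10 genes, tested as an interaction with edgeR's quasi-likelihood test. It was 1.21 for HSPA1A, 1.28 for HSPA1B, 0.65 for HSPA8, 0.35 for HSPH1, 0.37 for HSP90AA1, 0.34 for HSP90AB1 and 0.38 for DNAJB1. HSPA1A and HSPA1B share reads and are not 2 independent cases. The extracts belong to different library sets, which cannot be told apart from the extracts here.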

How the results depend on the processing

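No value that was called, in the reported fit or in an alternative, changed sign. Of the alternative values of the members' fold changes, 1561 stayed on their side of the threshold, some uncalled ones with another sign, 65 were no longer called and 34 were newly called. The calls of HSPA1A and HSPA1B in Okbyeongpung-san at 500 against 20 µg/mL, at 500 against vehicle and in the difference from Soshiho-tang held in every alternative.

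Of the 10 genes, the number called at 500 against 20 of Okbyeongpung-san was 3. It was 5 with DESeq2, 5 with no filter, 8 in the 27-library fit and 2 with own groups only. At 500 against vehicle it was 5, and 3 with the replicate block and 3 with own groups only. At 20 against vehicle it was 1, and 2 with DESeq2 and 3 in the 27-library fit. In the difference between extracts it was 7, and 4 with own groups only. With HSPA1A and HSPA1B summed, the pair counts as 1 entry. The number was then 2 at 500 against 20 of Okbyeongpung-san, 4 at 500 against vehicle, 1 at 20 against vehicle and 6 in the difference. With single libraries left out, the number ran from 2 to 6 in Okbyeongpung-san at 500 against 20, 3 to 6 at 500 against vehicle, 0 to 0 at 20 against vehicle, 5 to 8 in the difference and 2 to 6 in Soshiho-tang at 500 against 20.

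The number of all genes called in Okbyeongpung-san at 500 against 20 was 1716, and 2604 with no filter, 523 with own groups only and 3082 in the 27-library fit. At 20 against vehicle it was 372, and 780 with DESeq2, 1442 with no filter, 40 with the replicate block, 797 with own groups only and 2162 in the 27-library fit. With no filter 44 were called at 100 against 20 of Okbyeongpung-san (main 0), 101 in Soshiho-tang (main 12) and 67 in Yijin-tang (main 1). Own groups only gave 575 in the difference (main 1292), 3 and 0 at 100 against 20 of Soshiho-tang and Yijin-tang, and 308 in Yijin-tang at 500 against 20 (main 951). DESeq2 gave 8 in Yijin-tang at 100 against 20, and the 27-library fit 7 in Soshiho-tang. With single libraries left out the ranges were 630 to 1966 and 2228 to 3869 in Okbyeongpung-san at 500 against 20 and against vehicle, 9 to 26 at 20 against vehicle and 0 to 1 at 100 against 20; 801 to 1786 in the difference; 3 to 7 in Soshiho-tang at 100 against 20; and 505 to 1057, 0 to 1 and 2081 to 2822 in Yijin-tang at 500 against 20, 100 against 20 and 20 against vehicle. The cause was not tested. The replicate block changed no call of a member besides HSPA8 and HSPD1 in Okbyeongpung-san at 500 against vehicle.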
